A study of Drosophila melanogaster with 2 samples.

Results

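A stretch of chromosome arm 3R of Drosophila melanogaster holds 6 genes, CG42822, CG33333, CG42834, CG42835, CG14332 and CG5873, that are described here by their RNA levels in wing discs with and without extra Taiman (Tai). They are 6 of the 13989 genes of the deposited table and were taken by name. They were chosen by these same measured values, the FPKM with and without Tai, for being higher with Tai and as neighbours on 3R. The levels, differences and closeness of these 6 genes are therefore a description, carry no test and support nothing by themselves. The study sequenced RNA of wing discs, sheets of larval epithelium from which the adult wing develops, from wandering third-instar larvae raised at 25 °C. The control (GFP) carried en>GFP, which places green fluorescent protein under the driver of engrailed, a gene of posterior disc cells, and the second genotype (GFP_Tai) carried en>GFP,Tai. The protocol describes 80 to 100 discs pooled per genotype, so a value averages over whole discs, anterior cells included, and more cells with a transcript cannot be told apart from more transcript per cell. The deposited table holds 1 FPKM value per gene and genotype (fragments per kilobase of transcript, scaled by the authors to the mapped fragments of a library). Triplicates are mentioned in the design, yet single replicates were not analysed here, and no difference below has a replicate check.

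Tai is a coactivator that binds the receptor for ecdysone, the steroid hormone that times the molts and metamorphosis of insects, and so raises transcription of the receptor's target genes. Discs meet rising ecdysone at the end of larval life and later secrete cuticle and fold out into the wing. Of the 6 genes, CG5873 is the only one with a known role: the annotation names it cysu, Curly Su, a heme peroxidase that works with the oxidase Duox in shaping the adult wing. Heme peroxidases use hydrogen peroxide to oxidise other molecules, among them tyrosines that become cross-links in extracellular matrices. The other members carry annotation numbers alone, and no role is given to them here.

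The libraries carried their labels. The FPKM of tai was 27.1 in GFP against 879 in GFP_Tai, a ratio of 32.4. All 8 listed wing disc genes, such as vg, nub and ap, were present in both libraries at an FPKM of at least 37.4, and none differed 2-fold. The low values of the table gave an estimated depth of 8130171 fragments for GFP and 10623032 for GFP_Tai, which was used for fragment estimates and counting intervals. These intervals cover counting error only, not the error of the estimated depth.

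The 3 genes with the highest levels of the 6 in GFP_Tai were CG42834, CG33333 and CG14332, and each was listed at 0 in GFP. CG42834 (FBgn0262023, 3R:17418759-17419294 in BDGP6, plus strand) had 0 in GFP and an FPKM of 176 in GFP_Tai, which corresponds to an estimated 288 fragments. CG33333 (FBgn0053333, 3R:17417467-17418042, plus strand) had 0 and 159, from an estimated 610 fragments. CG14332 (FBgn0038509, 3R:17421690-17422202, minus strand) had 0 and 147, from an estimated 465 fragments. The GFP_Tai levels of these genes lay close to each other. The 95% Poisson interval for the fragments gave an FPKM of 156 to 198 for CG42834, 147 to 172 for CG33333 and 134 to 161 for CG14332, so neighbours in this order were not separated beyond counting error. No ratio is given against a listed 0, which in tables of this kind may also mark a failed estimate. At the estimated depth of GFP, the 3 fragments that a count of 0 allows would have given an FPKM of 2.40 for CG42834, 1.02 for CG33333 and 1.24 for CG14332, far under the GFP_Tai values.

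The remaining members listed at 0 in GFP were much lower in GFP_Tai. CG42835 (FBgn0262024, 3R:17420638-17420989, plus strand) had 0 in GFP and an FPKM of 8.24 in GFP_Tai, where the counting interval at 95% ran from 4.03 to 15.5 on an estimated 10 fragments. CG42822 (FBgn0262004, 3R:17413901-17414607, plus strand) had 0 and 4.90. Its locus in the table did not match the annotated transcript, and the estimate was 6 fragments at the coding length of 336 nt and 19 at the transcript length of 578 nt. At the depth of GFP, 3 fragments would have given an FPKM of 3.29 for CG42835 and, at its coding length, 3.05 for CG42822. The interval of CG42822 ran from 1.71 to 10.2 at its coding length. At its transcript length it ran from 2.97 to 7.69, with 1.02 for the 3 fragments. The limit of 3 fragments thus lay under the low end of the GFP_Tai interval for CG42835, and for CG42822 only at the transcript length. For CG42835 this rested on the choice of limit. The 95% Poisson interval of its 0 in GFP reached an FPKM of 4.05, just above the low end of 4.03 in GFP_Tai. The GFP_Tai intervals of CG42835 and CG42822 overlapped each other, so their order was not resolved.

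CG5873, the heme peroxidase gene (cysu, FBgn0038511, 3R:17425768-17446499, plus strand), was the only member with a value above 0 in GFP. Its FPKM was 11.2 in GFP against 63.1 in GFP_Tai, on an estimated 261 and 1920 fragments. The ratio was 5.63, and its 95% counting interval ran from 4.94 to 6.43. Its locus entry is shared with CG14331, which had an estimated 2 fragments, and 4 annotated genes overlap its span in BDGP6, so fragments could be shared between them. Its GFP_Tai level stood between the high and the low members. The interval was 60.3 to 65.9, below those of CG42834, CG33333 and CG14332 and above that of CG42835.

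**Figure D1:**
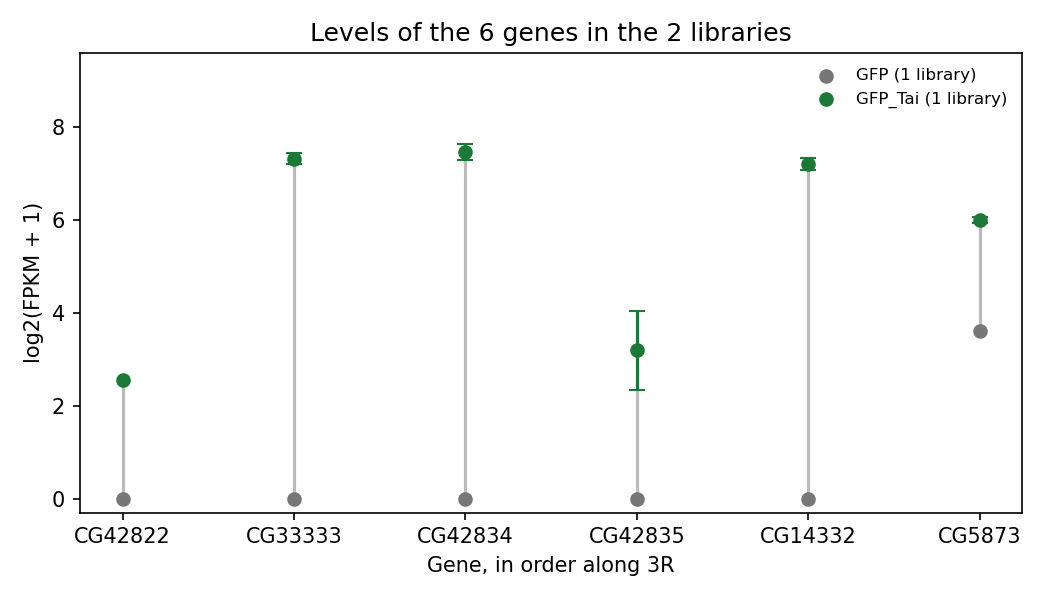
Levels of the 6 genes as log2(FPKM + 1) on the vertical axis, in their order along 3R on the horizontal axis, with GFP in grey and GFP_Tai in green, 1 library each. Bars are 95% Poisson counting intervals of the GFP_Tai value from the estimated fragments, not drawn for CG42822; 5 genes sit at 0 in GFP, and only CG5873 has a level in both libraries.

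On the log2(FPKM + 1) scale, which understates the difference of low genes, the differences were 7.47 for CG42834, 7.32 for CG33333, 7.21 for CG14332, 3.21 for CG42835, 2.56 for CG42822 and 2.39 for CG5873. Their median was 5.21, against -0.02 for all 8275 genes that reached an FPKM of 1 in GFP, in GFP_Tai or in both. All 6 were at least 2-fold higher in GFP_Tai, as were 6.31% of the 8275 genes; 1.81% were at least 2-fold lower. Since the members were picked for this contrast, nothing is read from that count. A gene at 0 in GFP that passes the minimum of 1 is also at least 2-fold higher by construction, which holds for 5 of the 6. Such genes made up 1.60% of those above the minimum. CG5873 had no such constraint; where both values were above 0, 4.82% of genes were higher by this rule and 1.19% lower.

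**Figure D2:**
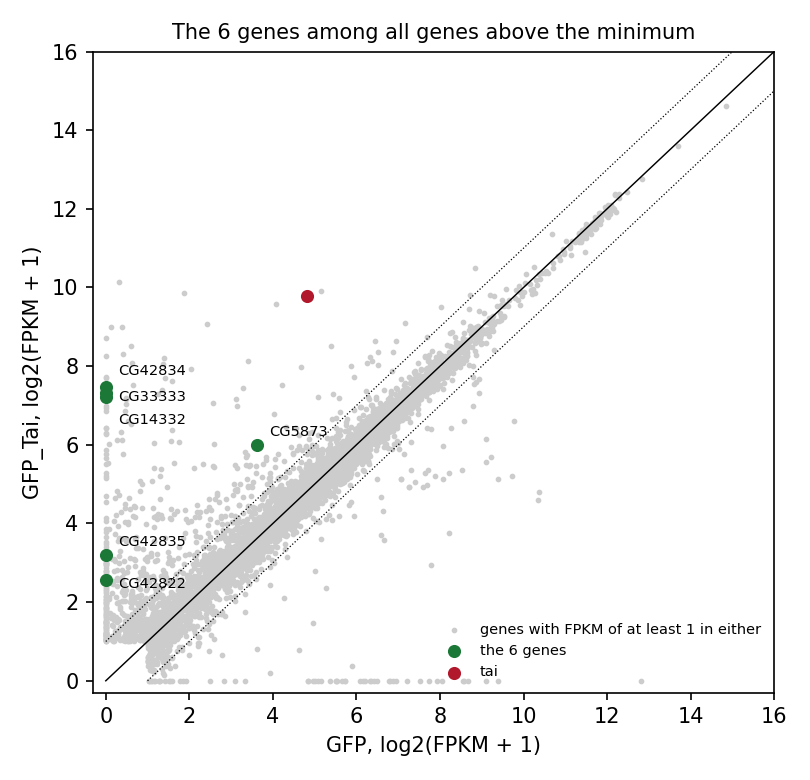
Each point is a gene that reached an FPKM of 1 in either library, plotted as log2(FPKM + 1) in GFP (horizontal) and GFP_Tai (vertical); the solid line marks equal values and the dotted lines a 2-fold difference. The members in green lie above the upper dotted line, 5 of them on the vertical axis at 0 in GFP, and tai is in red.

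Of 8374 genes with a test in the authors' deposited table, 11 (0.131%) were called at a q under 0.05, all with a higher value in GFP_Tai, and 3 of the 11 were members. Of the 11, 10 were listed at 0 in GFP, and the remaining one was tai itself. Apart from tai, no gene with a value above 0 in GFP was called. In the authors' deposited table, CG33333 and CG14332 had p = 5e-05 and q = 0.00567624 each, and CG42834 had p = 0.0005 and q = 0.0393738. The members without a call in the authors' deposited table were CG42822 with p = 0.12275, CG42835 with p = 0.1189 and CG5873 with p = 0.1263. CG5873 thus had no call although its estimated fragments exceeded those of each called member. The table does not give the replicate values behind these p-values.

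Within the GFP_Tai library the levels ranged from abundant to scarce. Among the 8275 genes, CG42834 ranked 574th by FPKM, CG33333 655th, CG14332 713th, CG5873 1743rd, CG42835 6536th and CG42822 7065th. Of 132 genes that were listed at 0 in GFP and had at least 1 in GFP_Tai, 102 lay under an FPKM of 10, and the median was 3.25. Against that set, CG42834 ranked 5th, CG33333 6th and CG14332 8th, whereas CG42835 ranked 36th and CG42822 55th. In the opposite direction, 54 genes were listed at 0 in GFP_Tai with at least 1 in GFP. Only 11 of the 132 reached an FPKM of 100, 3 of them members.

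The order of genes along the arm was then read from the locus column. From CG42822 to CG5873 the table holds 8 genes over 32.6 kb, so other genes lie among the members. CG5866 sits between CG42822 and CG33333. It was listed at 0 in GFP and had an FPKM of 2.47 in GFP_Tai, from an estimated 13 fragments, and in the authors' deposited table it had p = 0.1155 and no call. CG14331 lies inside CG5873 on the opposite strand and shares its locus entry in the table. It had 0 in GFP and 0.203 in GFP_Tai, an estimated 2 fragments. From CG42822 to CG14332, 6 genes including CG5866 occupy 8.27 kb, with gaps of 725 to 1484 bp, and CG5873 begins 3569 bp further on. In BDGP6, 5 members are on the plus strand and CG14332 alone is on the minus strand.

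Levels did not change evenly along the stretch. CG42835, with 8.24 in GFP_Tai, lies between CG42834 with 176 and CG14332 with 147. CG5866, with 2.47, lies next to CG33333 with 159. High and low FPKM values in GFP_Tai thus lay side by side within 8.27 kb.

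**Figure D3:**
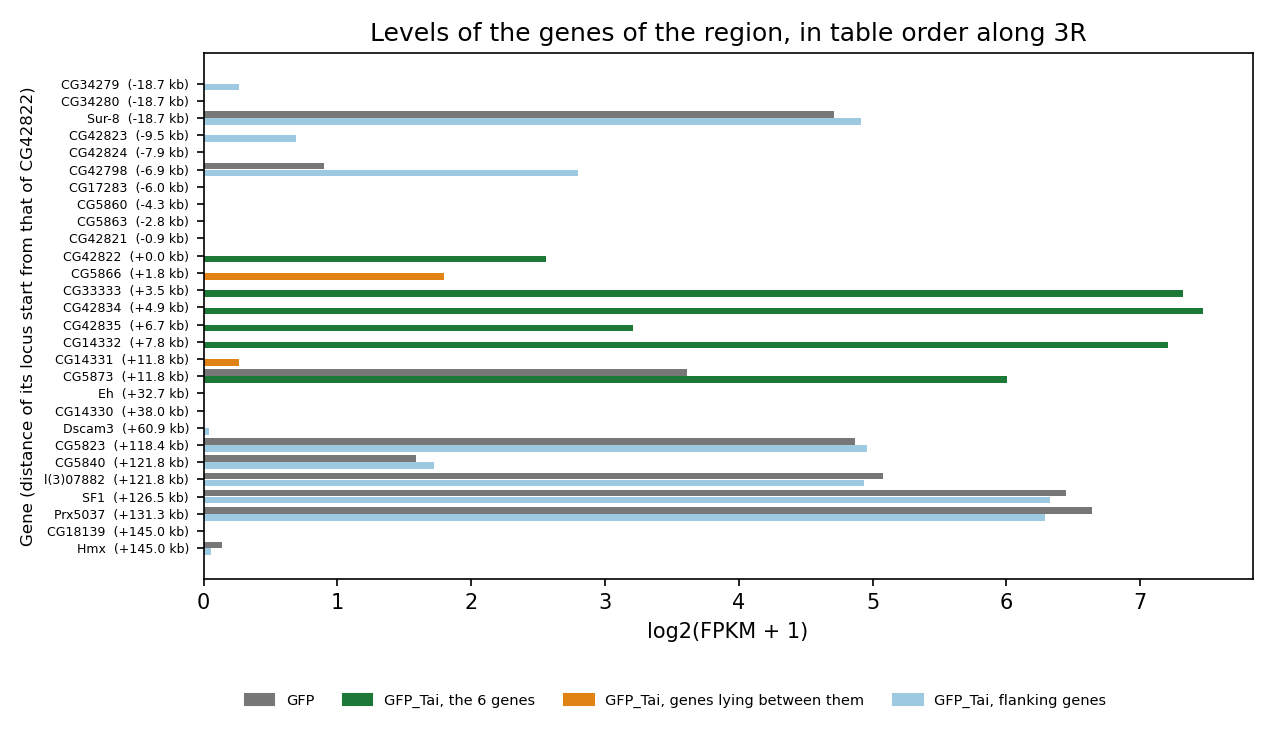
Levels as log2(FPKM + 1) on the horizontal axis for the members, the genes between them and 10 flanking genes on each side, in table order, with the distance of each locus start from that of CG42822 beside the name and 1 library per bar. High GFP_Tai bars without a GFP bar occur at CG33333, CG42834 and CG14332; the nearest flanking genes are at 0 in both libraries.

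The genes on either side served as contrast. The 3 nearest genes upstream were CG42821, CG5863 and CG5860, and all were listed at 0 in both genotypes; CG5863 and CG5860 encode aspartic proteases. By locus start CG42821 lies at -0.92 kb from CG42822. Downstream, the nearest gene is Eh, which encodes the neuropeptide eclosion hormone, at 0 in both genotypes, as was CG14330. Dscam3, which encodes a cell adhesion receptor, had 0 in GFP and 0.0300 in GFP_Tai. The members and CG5866 were thus bordered on both sides by genes with little or no signal in either library.

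Of the 20 flanking genes of the table, 10 on each side, 9 were listed at 0 in both genotypes and 7 passed the minimum. The annotation treats CG18139, at 0 in both, and Hmx as the same gene, which leaves 19 distinct ones. Of the 7 that passed, 1 was at least 2-fold higher and 0 were lower, where 6.31% of all genes above the minimum were higher. CG42798, at -6.95 kb from CG42822 by locus start, had an FPKM of 0.862 against 5.94 in GFP_Tai. The ratio of 6.89 was loosely bounded, between 1.86 and 67.5 by counting error at 95%, since it rests on an estimated 2 and 20 fragments. Further upstream, Sur-8, a scaffold of Ras signaling, had 25.2 and 29.1. Downstream, CG5823 had 28.2 and 30.1, and the splicing factor gene SF1 had 86.2 and 79.2. The median log2 difference of the 7 flanking genes above the minimum was 0.09, against 5.21 for the members.

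With 20 genes on each side, 4 more genes were at least 2-fold higher, named here after their values were seen. The FPKM of CREG was 10.1 against 29.97 in GFP_Tai, and Edg91, an ecdysone-dependent gene, had 9.76 and 42.8. CG14327 had 0 and 4.89, and CG7587 had 0 and 1.11. None of these reached the GFP_Tai level of CG5873 or of the 3 high members, but CREG and Edg91 lay above CG42835 (8.24) and CG42822 (4.90). The added genes above the minimum that were not 2-fold higher on the log2(FPKM + 1) scale were CG31262, beat-IIb, Brf, CG14333, lute, sds22 and sll. Of these, beat-IIb had 0.835 in GFP against 2.39 in GFP_Tai, a plain ratio of 2.86. Over the whole table, 6.31% of genes above the minimum were higher.

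Series of neighbouring higher genes were counted over the whole table. A series was an unbroken row of genes, ordered by locus start, each at least 2-fold higher in GFP_Tai. The 522 higher genes formed 384 series of 1 gene, 46 of 2, 12 of 3, 1 of 4 and 1 of 6. The series of 6 ran from CG42822 through CG5866 to CG14332, and all 6 genes were listed at 0 in GFP. Since the members were picked as neighbouring higher genes, a series here was given by the choice, and nothing is read from its length. Among the 132 genes at 0 in GFP that were higher, the next longest unbroken series had 3 genes. The 150 lower genes formed 9 series of 3 or more. Of the 14 such series of higher genes, 10 were on 3R, the members' series included. That arm held 145 of the 522 higher genes and 2017 of the 8275 genes above the minimum. CG5873 was left out of the series because CG14331, with 0.203 in GFP_Tai, came before it in the order used. Both share a locus entry, so their order was set by name alone. In BDGP6, CG5873 starts at 17425768 and CG14331 at 17438968. By annotated start CG5873 thus follows CG14332 and would extend the series.

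With genes below the minimum skipped, the series ran over 8 genes from CG42798 to CG5873 and held all 6 members. Then 1 series was longer, with 15 genes from Gasp to Osi17, across the Osiris genes of 3R. The count thus depends on how silent neighbours are treated and ordered, and the members' series was the longest only where such neighbours end a series.

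**Figure D4:**
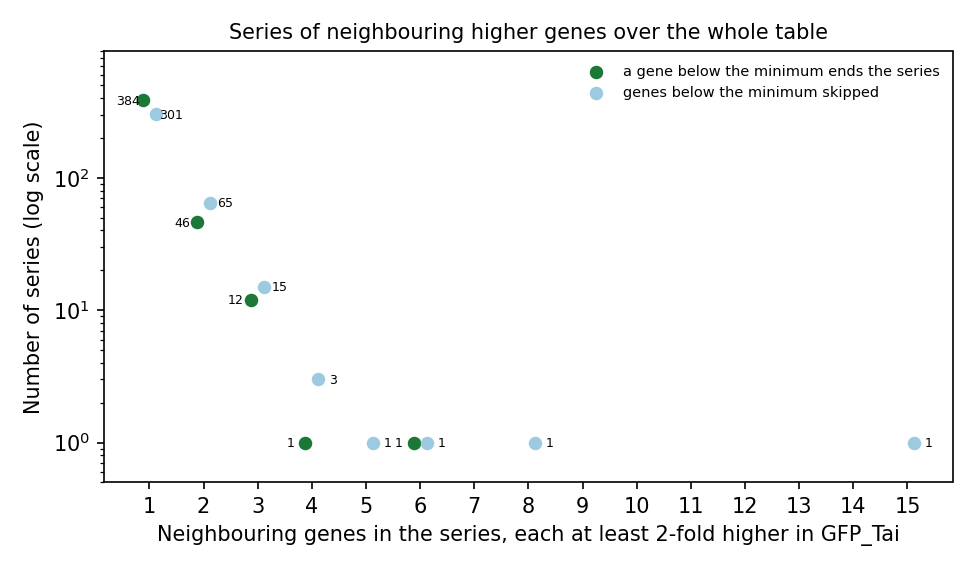
Number of series (vertical, log scale) against the number of neighbouring genes in the series (horizontal), each gene being at least 2-fold higher in GFP_Tai. Green points end a series at a gene below the minimum, with the longest at 6 genes; blue points skip such genes, with the series of the members at 8 and the longest at 15.

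Some features of gene structure, which the choice of members did not use, were shared by some but not all members. CG33333, CG42834, CG42835 and CG14332 each have a single exon, CG42822 has 3 and CG5873 has 10. Among protein-coding genes above the minimum, 9.34% had a single exon, and among those listed at 0 in GFP with at least 1 in GFP_Tai, 24.8%. The 5 members listed at 0 in GFP encode short proteins, of 108 codons for CG42835, 112 for CG42822, 122 for CG42834, 124 for CG14332 and 148 for CG33333. CG5873 has 753 codons. A coding length under 150 codons was found in 8.94% of protein-coding genes above the minimum. It was found in 43.8% of the 121 protein-coding genes listed at 0 in GFP with at least 1 in GFP_Tai. That set includes these 5 members. Short or single-exon genes also lay among the flanks. CG42824 and CG14330 have a single exon with 146 and 89 codons, and CG42821 has 112 codons, CG42798 57 and Eh 97. CG17283, CG5860 and CG5863 have a single exon but are longer, with 465, 370 and 395 codons. Other flanking genes are long with several exons, such as Sur-8 with 641 codons and SF1 with 787. The part of gene length in a listed 0 was not tested.

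The gene models behind the FPKM values touch the members. For CG42834 the locus of the table spans 369 nt, which equals the annotated coding length with its stop codon, while the annotated transcript has 536 nt. The same held for CG42835, with 327 nt in the table and 352 nt in the annotation. The FPKM of these genes was therefore set per coding length, and its level relative to CG33333 and CG14332, whose table spans of 576 and 513 nt equal the annotated transcripts, carries that difference. CG33333 also overlaps the antisense RNA gene asRNA:CR46034 (3R:17417502-17418019, minus strand) over 518 bp. That gene was not analysed here, and no strand-specific counting is stated, so reads of CG33333 and of its antisense partner cannot be told apart.

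Other heme peroxidase genes were compared with CG5873. Of 9 listed genes found in the table, 6 passed the minimum. A 2-fold higher value in GFP_Tai was found for 3 of them (6.31% of all genes above the minimum) and a lower one for 0 (1.81%). The 3 included CG5873, picked for its value. Without it, 2 of the remaining 5 were higher, and their median log2 difference was 0.43, against 1.28 with CG5873 and -0.02 for all genes. CG10211 had an FPKM of 9.19 against 43.5 in GFP_Tai, and its ratio of 4.74 was bounded by 4.24 and 5.29 (95% counting interval). CG42331 had 0.0554 and 13.6, with an interval of the ratio of 74.0 to 2219, from an estimated 2 fragments in GFP. Both lay far from equal values beyond counting error, in the direction of CG5873.

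Duox, the oxidase that supplies hydrogen peroxide and acts with cysu in the wing, differed less than 2-fold, with an FPKM of 37.7 against 46.9 in GFP_Tai and a ratio of 1.25 (95% counting interval 1.17 to 1.33). Pxn, the peroxidasin of basement membranes, had 3.17 and 4.63, with a ratio of 1.46 (interval 1.17 to 1.81). Irc, an immune-regulated catalase, had 1.02 and 1.39. Its interval of the ratio, 0.741 to 2.57, included equal values. Pxd had 0.595 and 0.775, Pxt, which acts in the ovary, had 0.148 and 0.0753, and CG4009 was listed at 0 in both genotypes.

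Genes outside the members were ranked by their distance, in log2(FPKM + 1) of both libraries, from the members' mean point, and the 6 nearest are named. That point (0.60 in GFP and 5.63 in GFP_Tai) is an average at which no member lies. Its GFP part comes from CG5873 alone, and the members' own distances from it were 1.69 to 3.12, so the named genes are near the average and not near each member. With only 2 libraries, likeness means no more than a similar level in each. The nearest was tal-1A, named for a small peptide gene of the tarsal-less locus, with an FPKM of 0.333 against 53.7 in GFP_Tai (distance 0.24). Next came CG4998 with 0.317 and 69.2 (distance 0.55), MED9 with 0.0338 and 45.3 (0.56), Osi9 with 0.7503 and 33.0 (0.58), CG6118 with 0.198 and 68.1 (0.59) and CG11966 with 1.23 and 41.8 (0.60). Both tal-1A and MED9 share a locus entry of the table with another gene, so their values are uncertain. Of these 6 genes, 4 are on 3R, and none belongs to the stretch of the members. Among genes listed at 0 in GFP, as the high members were, Edg84A, a cuticle gene, had a GFP_Tai level of 149, between those of CG33333 and CG14332 (chosen after its value was seen).

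Some markers of other tissues that a disc preparation could hold also differed between the libraries, and the lists are given beside the members listed at 0 in GFP. Of the larval gut list, 5 of 6 genes were in the table and all 5 were at 0 in GFP, with a summed FPKM of 0 in GFP and 285 in GFP_Tai; betaTry was at 0 in both. The serine protease genes Jon65Aiv, Jon65Aiii and yip7 had 121, 85.0 and 77.1 in GFP_Tai, levels within the range of the members. The salivary gland list, all 5 genes found, had summed values of 0.753 and 12.2, with Sgs7 and Sgs8 at 0 in GFP. These sums rest on few fragments, with an estimated 15 for Sgs3, 8 for Sgs7 and 4 for Sgs8 in GFP_Tai. The trachea list had summed values of 474 and 1341, with Gasp, serp and verm at least 2-fold higher, while the other three, trh with 21.3 and 20.2, btl with 3.47 and 3.45 and dys with 8.13 and 7.08, were not. Summed values were 18.7 and 29.2 for fat body, 5.25 and 11.6 for blood cells, 57.6 and 49.2 for muscle and 9.70 and 8.31 for neurons, with no gene of these lists at 0. In these lists only Lsp1beta of fat body and NimC1 of blood cells were at least 2-fold higher on the log2(FPKM + 1) scale, and none was lower. By the plain ratio of FPKM values, Lsp1alpha of fat body (2.16), srp of blood cells (2.33) and Syt1 of neurons (3.63) also passed 2-fold, at low levels. Syt1 lay below the minimum. No gene of these lists was 2-fold lower by the plain ratio. The part of these tissues in the levels of the members was not tested.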

How the data were processed

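RNA sequencing gave 1 sample of wing discs per genotype, grouped by the genotype label. Per the labels' protocols, the TruSeq version 2 kit was used on total RNA after depletion of rRNA. Per the submitters' processing notes, the build was dm6 and the tools included TopHat2 2.0.12, Cuffdiff 2.2.1 and CASAVA 1.4, with no roles stated. Of annotation, strand setting and replicate handling, none is stated in the sources used here. In the deposited table the values are FPKM, scaled by the authors, and, per the file headers, it also holds the authors' p-value and q-value per gene. Its loci did not lie on dm6: of 2537 genes of 3R matched by symbol, 0 had the start of the BDGP6 annotation (Ensembl release 115), and 2000 lay within 1 kb of an offset of 4174278 bp. Coordinates were therefore taken from BDGP6 by symbol or synonym, and order, gaps and spans from the table.

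Differences are log2((GFP_Tai FPKM + 1) / (GFP FPKM + 1)); the minimum was an FPKM of 1 in either genotype and a gene was counted at 2-fold. With 1 value per genotype no test was made. Depth came from 325 genes at the commonest ratio of both values, taken as equal fragments, and 24 single-transcript genes among them gave the value of 1 fragment, with 215 nt taken off each length. Of 233 low single-transcript genes, 97.9% then came out whole in GFP_Tai within 0.1. Intervals are exact Poisson (levels) and Clopper-Pearson (ratios) at 95%; for genes with introns the longest annotated transcript was used. Named genes were tai, the members, their neighbours, flanking genes at least 2-fold different, the heme peroxidase list, marker genes and the 6 nearest by level. The members and lists were chosen with earlier results of these data known. The computations were checked on simulated data. Python 3.11.15, numpy 2.4.6, pandas 2.3.3 and scipy 1.17.1 were used.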

Additional observations from a re-analysis of the deposited data

How the results depend on the processing

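Genes above 0 in both genotypes only, the genes between the members counted with the flanks, and the heme peroxidases without CG5873 were alternatives chosen after seeing the data. The 26 results were given 113 alternative values, of which 70 kept within 1.5 times or counting error, 43 moved further and 1 changed sign (the median of the neuron list, -0.33, was 0.07 with no minimum). With a pseudocount of 5, 5 of the 6 were at least 2-fold higher, since CG42822 fell to a log2 difference of 0.99, and with a minimum of 5, 5 passed. The number of flanking genes higher (1) was 0 with a pseudocount of 5, 5 with 20 genes on each side, 2 with flanks ordered by the annotation and 2 with the genes between counted. Genes in series of 3 or more (46) were 83 at 1.5-fold, 28 at 3-fold, 16 at a minimum of 5, 7 with a pseudocount of 5 and 91 with silent neighbours skipped; the series of the members held 4 genes at a minimum of 5 or a pseudocount of 5 and no other was longer. Genes higher over the table (522) were 813 at 1.5-fold, 324 at 3-fold and 284 with a pseudocount of 5, and genes lower (150) were 325, 87 and 97, and 96 among genes above 0 in both. With nothing taken off the transcript length, every estimate of GFP_Tai fragments moved beyond counting error. The estimates were then 509 for CG42834, 21 for CG42835, 718 for CG33333, 591 for CG14332 and 1524 for CG5873. The estimated depth was then 6002946 fragments for GFP and 7843561 for GFP_Tai. The heme peroxidase median (1.28) was 2.26 at a minimum of 5, 0.37 with none and 0.43 without CG5873. The planned count of promoter motifs and the protein comparison were not run. No paired analysis was possible because each genotype has 1 sample. Depth limits CG42835 and CG42822 most, which rest on few fragments.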
